A study of Drosophila melanogaster with 34 samples.

Results

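Burdock, HMS-Beagle and Transpac (BURDOCK, HMSBEAGLE and TRANSPAC in the deposited tables) are gypsy-group LTR retrotransposons that are known mostly from silencing in the germline of the fly ovary. They were taken by name, as 3 of the 129 transposon consensus sequences measured in every table, and the rule used no measured value. Earlier results of these data were known when they were chosen. A consensus stands for many genomic copies of a family and has no single chromosome position. The lengths that turned the deposited values into whole reads were 6135 bp for Burdock, 6795 bp for HMS-Beagle and 4920 bp for Transpac.

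The study used ovarian somatic cells (OSC) of Drosophila melanogaster, a cultured line of follicle-type cells without germ cells, grown at 26 degrees. Cells were transfected with siRNA against Piwi (Piwi-KD), the linker histone H1 (H1-KD), the heterochromatin protein HP1a (HP1a-KD) or Maelstrom (Mael-KD), and cells given siRNA against EGFP were the control. All groups share the line and the transfection, and they differ in the siRNA alone as far as the labels go. Poly(A)+ RNA was sequenced in Piwi-KD, H1-KD and control cells, small RNA immunoprecipitated with Piwi in H1-KD and control cells, and accessible chromatin (ATAC-seq) in all 4 knockdowns and the control. H3K9me3 and HP1a ChIP-seq covered Piwi-KD, H1-KD and control cells, and H1 ChIP-seq, with an antibody made in the study, covered Piwi-KD, Mael-KD and HP1a-KD cells, each beside a control of the same sample number. A ChIP input library, which is sheared genomic DNA, goes with each. The tables hold transposons alone, so how far each knockdown lowered its target and whether marker genes fit the labelled cell type were not analysed here.

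An LTR retrotransposon multiplies by copying its RNA into new DNA, so its poly(A)+ RNA is both its messenger and its transposition intermediate. In the nucleus of ovarian cells Piwi carries piRNAs, small RNAs that match transposons, to nascent transcripts and brings about H3K9 trimethylation. HP1a binds that mark, Maelstrom is needed for the same silencing, and the linker histone H1 binds DNA between nucleosomes and compacts chromatin. Germ cells add a cytoplasmic cycle that amplifies piRNAs from transposon transcripts, whereas follicle cells rely on Piwi and on piRNAs cut from long precursor transcripts. Burdock is widely used as a reporter of germline silencing.

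The recovered read totals per library were between 20625614 and 25544579 for RNA, between 6973985 and 7397276 for small RNA and between 3381967 and 5674137 for ATAC. ChIP libraries had between 2170354 and 4261323 reads and inputs between 1560307 and 4266312. The tables give 1 value per condition, also for ATAC, where the labels list 2 samples per condition, and the sources used here do not say whether that column pools them. The replicated group is therefore the 3 controls of H1 ChIP and of input. Elsewhere a difference has no replicate check, no p-value is given, and a change is described as past 2-fold for RNA and small RNA or past 1.5-fold for ATAC and ChIP. Log2 changes include a pseudocount, 0.1 of the median of each table's nonzero values, and 95% intervals are on the ratio without it and cover counting error only. These are bulk measurements, so a level in fewer cells and a lower level in every cell cannot be told apart.

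In control cells the 3 elements differed in how much DNA they had. Input stood at 35.5 ± 1.87 RPKM for Burdock, 226 ± 4.48 RPKM for HMS-Beagle and 207 ± 24.96 RPKM for Transpac (SD, n = 3 libraries each). HMS-Beagle and Transpac thus ranked 21 and 22 of 129 transposons, with library ranges that overlap, and Burdock ranked 67. Transpac varied most, at 178 RPKM in control sample 1 and 219 and 223 RPKM in samples 2 and 3. In the 4 knockdown inputs the values ran from 37.3 to 39.2 RPKM for Burdock, 227 to 245 RPKM for HMS-Beagle and 179 to 232 RPKM for Transpac. Set against the control of the same sample number, no knockdown input differed by more than 0.22 on the log2 scale, the value of Burdock in Mael-KD cells.

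RNA followed another order. Transpac had 34.2 RPKM of control RNA (4107 reads, rank 18 of 129), HMS-Beagle 4.75 RPKM (787 reads, rank 53) and Burdock 0.822 RPKM (123 reads, rank 84). Divided by the input of control sample 1, where Transpac input was lowest, the control RNA of Transpac came to 0.192, against 0.0212 for HMS-Beagle and 0.0232 for Burdock, and the median of 96 transposons was 0.0453. HMS-Beagle therefore had about the DNA of Transpac and a much lower RNA level per DNA, close to that of Burdock.

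Piwi-bound small RNA set HMS-Beagle apart. Per kilobase of consensus, control cells held 1239 RPKM of HMS-Beagle small RNA, 11.5 RPKM of Transpac and 1.45 RPKM of Burdock, which ranked 19, 73 and 102 of 128 transposons with a length. Per input of control sample 1 the values were 5.55 for HMS-Beagle, 0.0648 for Transpac and 0.0411 for Burdock, with a median of 0.467. The tables do not separate sense from antisense small RNA, or lengths, so these reads are called Piwi-bound small RNA here.

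H3K9me3 and HP1a in control cells divided the elements in the same way, while H1 and ATAC did not. HMS-Beagle had 3.36 for H3K9me3 over input and 2.07 for HP1a over input, both above the medians of 2.72 and 1.81. Burdock had 1.57 and 1.32, and Transpac 1.39 and 1.10, for the same marks, all below those medians and among the lower 25 of 96 transposons. H1 over input was 1.22 ± 0.127 for Burdock (rank 47), 1.21 ± 0.0932 for HMS-Beagle (rank 51) and 1.07 ± 0.0354 for Transpac (rank 74 of 96; SD, n = 3 libraries each), beside a median of 1.21. Transpac was the lowest of the 3 in each of the 3 control libraries. ATAC over input was below the median of 1.03 for each of them: 0.743 for Burdock, 0.562 for Transpac and 0.488 for HMS-Beagle, which ranked 94 of 96.

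**Figure D1:**
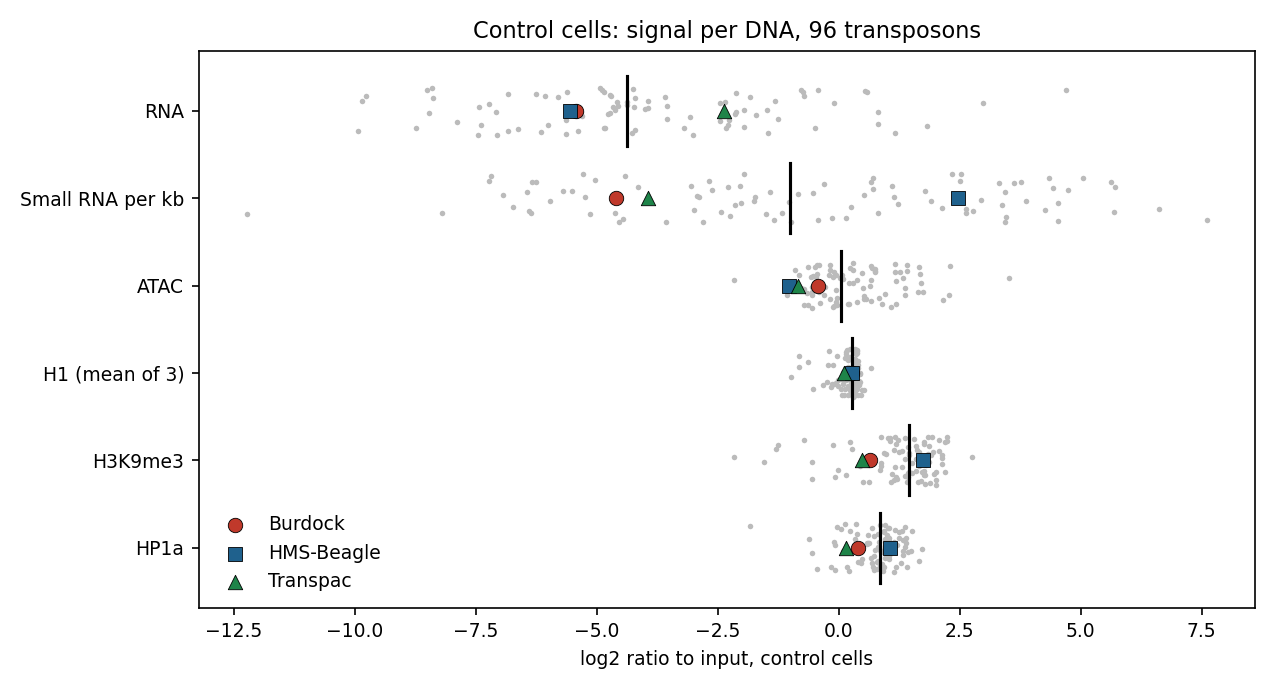
Signal per DNA in control cells for 96 transposons (grey points) with Burdock, HMS-Beagle and Transpac marked; the x axis is the log2 ratio of each readout to the input of control sample 1 (for H1, the mean of 3 samples, each over its own input), the y axis the readout with points spread for legibility, and the black bars are medians. HMS-Beagle lies right of the median for small RNA, H3K9me3 and HP1a and left of it for RNA and ATAC, while Burdock and Transpac lie left of the median for small RNA, ATAC, H3K9me3 and HP1a.

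Piwi-KD was compared with the control to ask which transposons Piwi represses in these cells. Burdock RNA stood at 0.561 RPKM in Piwi-KD cells (71 reads), against 0.822 RPKM in control cells (123 reads), a log2 change of -0.30 with the pseudocount (interval without it -0.99 to -0.12). HMS-Beagle had 4.69 RPKM in Piwi-KD cells (657 reads) and 4.75 RPKM in control cells (787 reads), a log2 change of -0.02 whose interval of -0.17 to 0.13 holds 0. Transpac had 40.5 RPKM in Piwi-KD cells (4112 reads) and 34.2 RPKM in control cells (4107 reads), a log2 change of 0.24 (0.18 to 0.31).

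None of the 3 was 2-fold higher or lower in Piwi-KD cells. For Burdock this rests on low values: both its levels lay under 1.18 RPKM, the lowest mean kept. It was compared only through its H1-KD value. Without the pseudocount of 0.553 RPKM its Piwi-KD ratio was 0.683, with an interval of 0.503 to 0.922. Of the 96 transposons compared, 24.0% were higher by 2-fold or more, 3.12% were lower by as much, and the median log2 change was 0.11. Among near relatives of the 3 (LTR elements of the same branch of the gypsy group), 6 of the 11 compared were 2-fold higher, 0 were 2-fold lower and the median was 3.88. DM297, an LTR element long known to be repressed by Piwi in these cells, was higher by 6.38 on the log2 scale and GYPSY, the best known follicle-cell element, by 5.50. Of elements best known from the germline, 3 of 8 were higher and 1 was lower, with a median of 0.54.

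The RNA of H1-KD cells, which asks what the linker histone does for each transposon, set Burdock apart from HMS-Beagle and Transpac. It reached 13.5 RPKM in H1-KD cells (2108 reads), against 0.822 RPKM in control cells (123 reads), a log2 change of 3.35 with the pseudocount. Without the pseudocount the ratio was 16.4-fold, with an interval of 13.6 to 19.8. Burdock ranked 9 of 96 transposons by this change, a set that it entered only through its H1-KD value. By RNA level it ranked 56 of 129 in H1-KD cells, against 84 in control cells.

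HMS-Beagle had 5.63 RPKM of RNA in H1-KD cells (977 reads) and 4.75 RPKM in control cells (787 reads), a log2 change of 0.22 (0.11 to 0.38). Transpac had 41.7 RPKM in H1-KD cells (5242 reads) and 34.2 RPKM in control cells (4107 reads), a log2 change of 0.28 (0.23 to 0.35). Both intervals lie above 0, yet both changes were small beside those of other transposons: HMS-Beagle ranked 85 and Transpac 82 of 96.

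So 1 of the 3 elements was 2-fold higher in H1-KD RNA, where 58.3% of all transposons compared were higher and 0.00% lower. The median transposon was itself higher by 1.19 on the log2 scale in H1-KD cells. Relative to that median, Burdock stood at 2.16, Transpac at -0.91 and HMS-Beagle at -0.97, and the split over all 96 transposons became 24 higher and 11 lower, in place of 56 and 0. Burdock entered the comparison through its H1-KD value: its levels in Piwi-KD and control cells both lay under 1.18 RPKM, the lowest mean kept. Of the near relatives 8 of 11 were higher and 0 lower (median 1.41). Among these DM297 was higher by 3.05 and GYPSY by 3.83 on the log2 scale, so a change like that of Burdock was not particular to it. Of the germline elements 3 of 8 were higher and 0 lower (median 0.65).

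Set directly against Piwi-KD, H1-KD cells had 13.5 RPKM of Burdock RNA and Piwi-KD cells 0.561 RPKM, a ratio of 24.0-fold without the pseudocount (18.9 to 30.8) and a log2 change of 3.65 with it. This ranked 4 of 96, where 37.5% of transposons were 2-fold higher in H1-KD and 12.5% lower and the median was 0.73. Here too Burdock passed the filter only through its H1-KD value, so the filter favours this rank and this change. HMS-Beagle differed by 0.24 and Transpac by 0.04 on the log2 scale in the same comparison. Relative to the median the values were 2.92 for Burdock, -0.49 for HMS-Beagle and -0.69 for Transpac, and the split became 25 higher and 17 lower in place of 36 and 12.

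**Figure D2:**
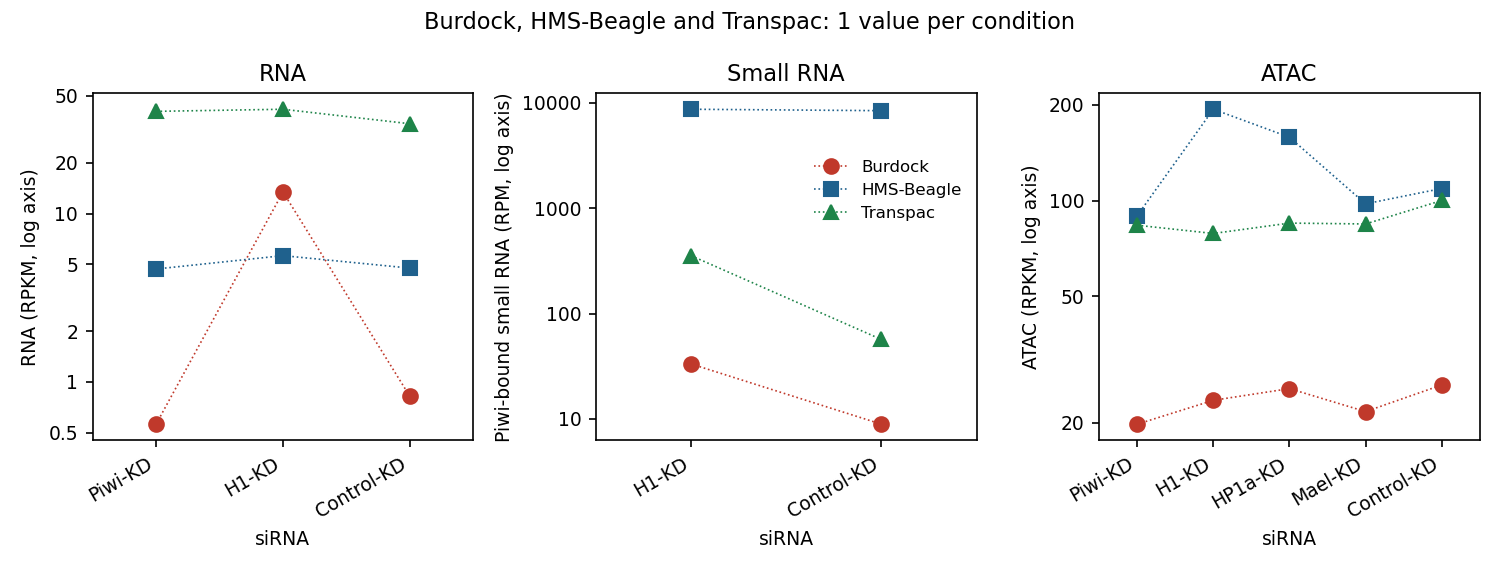
Levels of the 3 elements in each condition, 1 value per condition, on log axes: RNA in RPKM (left), Piwi-bound small RNA in RPM (middle) and ATAC in RPKM (right), with the siRNA on the x axis and dotted lines joining the values of an element. Burdock RNA is 13.5 RPKM in H1-KD cells and 0.822 in control cells, Transpac small RNA 354 RPM in H1-KD cells and 56.8 in control cells, and HMS-Beagle ATAC 194 RPKM in H1-KD cells and 109 in control cells.

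Piwi-bound small RNA in H1-KD cells set another of the 3 apart. Transpac had 354 RPM in H1-KD cells (2470 reads) and 56.8 RPM in control cells (420 reads). That is 6.24-fold without the pseudocount (5.62 to 6.93) and a log2 change of 2.48, rank 10 of 96. Its RNA in the same knockdown was 1.22-fold that of the control.

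HMS-Beagle had 8685 RPM in H1-KD cells (60571 reads) and 8418 RPM in control cells (62269 reads), a log2 change of 0.05 (0.03 to 0.06). Its large supply of Piwi-bound small RNA was thus nearly the same in the 2 libraries. Burdock had 33.3 RPM in H1-KD cells (232 reads) and 8.92 RPM in control cells (66 reads), 3.73-fold without the pseudocount (2.83 to 4.98). Its mean of 21.1 RPM fell just under the lowest mean kept, 21.4 RPM, so it is not counted among the transposons compared. Per kilobase in H1-KD cells the order stayed as in control cells, with 1278 RPKM for HMS-Beagle, 72.0 RPKM for Transpac and 5.42 RPKM for Burdock.

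Of the 2 elements that were compared, 1, Transpac, was 2-fold higher, while 33.3% of all transposons were higher and 0.00% lower. The median was 0.27, and relative to it Transpac stood at 2.21, HMS-Beagle at -0.22 and Burdock, outside the filter, at 1.01. Relative to the median the split over all transposons became 23 higher and 3 lower in place of 32 and 0. None of the 10 near relatives compared was 2-fold higher or lower (median -0.37), and 1 of the 8 germline elements was higher (median -0.20). Small RNA of Piwi-KD, HP1a-KD and Mael-KD cells was not analysed here.

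ATAC-seq counts transposase insertions and so measures how open the chromatin of the copies is. HMS-Beagle had 89.6 RPKM in Piwi-KD cells, 194 RPKM in H1-KD cells, 158 RPKM in HP1a-KD cells and 97.6 RPKM in Mael-KD cells, against 109 RPKM in control cells. Its value in H1-KD cells was the highest of the 5 and that in HP1a-KD cells came next. The H1-KD change was 0.80 on the log2 scale (0.76 to 0.89), rank 8 of 96, and the HP1a-KD change 0.51 (0.47 to 0.60), a 1.43-fold change that lay just under 1.5-fold.

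Transpac had 83.6 RPKM of ATAC signal in Piwi-KD cells, 78.8 RPKM in H1-KD cells, 84.9 RPKM in HP1a-KD cells and 84.4 RPKM in Mael-KD cells, against 100.0 RPKM in control cells. Burdock had 19.8 RPKM in Piwi-KD cells, 23.6 RPKM in H1-KD cells, 25.6 RPKM in HP1a-KD cells and 21.7 RPKM in Mael-KD cells, against 26.3 RPKM in control cells (546 reads). In these library-scaled values both elements were highest in the control column, although the intervals of Burdock in H1-KD and HP1a-KD cells held 0. The median transposon was itself lower in Piwi-KD (-0.32) and Mael-KD cells (-0.23). Relative to it Transpac stood at 0.08 and 0.001 there, and Burdock at -0.01 and 0.01. In H1-KD and HP1a-KD cells Transpac stood at -0.24 and -0.44 relative to the median, and Burdock at -0.05 and -0.25. For Burdock in H1-KD cells the log2 change was -0.13 (-0.32 to 0.003) while its RNA was 10.2-fold higher with the pseudocount.

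In H1-KD cells 1 of the 3, HMS-Beagle, was 1.5-fold higher in ATAC signal, where 12.5% of transposons were higher and 1.04% lower and the median was -0.08. In HP1a-KD cells 0 of the 3 passed 1.5-fold, where 31.2% were higher and 0.00% lower. The HP1a-KD median was 0.21, and relative to it HMS-Beagle stood at 0.30, Burdock at -0.25 and Transpac at -0.44, with a split of 22 higher and 4 lower in place of 30 and 0. By rank in HP1a-KD, HMS-Beagle was 34, Burdock 74 and Transpac 89 of 96.

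In Piwi-KD cells 0 of the 3 passed 1.5-fold in ATAC signal, where 11.5% of transposons were higher and 2.08% lower. The log2 changes were -0.33 for Burdock, -0.27 for HMS-Beagle and -0.24 for Transpac, close to the median of -0.32. In Mael-KD cells 0 of the 3 passed it too, where 8.33% were higher and 2.08% lower, and the changes were -0.22 for Burdock, -0.15 for HMS-Beagle and -0.23 for Transpac beside a median of -0.23. Relative to those medians each of the 3 lay between -0.01 and 0.08 in both knockdowns, and the split over all transposons became 14 higher and 0 lower in Piwi-KD cells, in place of 11 and 2, and 11 higher and 0 lower in Mael-KD cells, in place of 8 and 2. Of 11 near relatives 6 were higher in ATAC signal in Piwi-KD cells (1 lower, median 1.20), 3 in H1-KD cells (0 lower, median -0.05), 8 in HP1a-KD cells (0 lower, median 0.90) and 3 in Mael-KD cells (0 lower, median 0.01).

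A direct comparison of H1-KD with Piwi-KD, added after the data had been seen, gave HMS-Beagle 194 RPKM of ATAC signal in H1-KD cells and 89.6 RPKM in Piwi-KD cells. The log2 change of 1.06 (1.05 to 1.17) ranked 2 of 96. In that comparison 1 of the 3 passed 1.5-fold, with 11.5% of transposons higher and 9.38% lower and a median of 0.20. Relative to that median HMS-Beagle stood at 0.86, and the split became 5 higher and 11 lower in place of 11 and 9. Burdock stood at 0.20 and Transpac at -0.08. Among 11 near relatives 1 was higher and 6 were lower, with a median of -1.16.

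H3K9me3 over input was lower on all 3 elements in H1-KD cells, by less than 1.5-fold. On Burdock it was 1.08 in H1-KD cells (594 ChIP reads) and 1.57 in control cells (825 ChIP reads), a log2 change of -0.44 (-0.74 to -0.33) and the 9th lowest of 96. On HMS-Beagle it was 2.62 in H1-KD cells and 3.36 in control cells, a log2 change of -0.35 (-0.42 to -0.29). On Transpac it was 1.23 in H1-KD cells and 1.39 in control cells, a log2 change of -0.16 (-0.28 to -0.07).

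In H1-KD cells the ratio was thus close to 1 on Burdock and still well above 1 on HMS-Beagle. Each value is scaled to its own library, so a ratio of 1 does not mark the absence of H3K9me3. In control cells Jockey, for instance, stood at 0.678. The H1-KD median was -0.01, 2.08% of transposons lay 1.5-fold or more above the control and 6.25% below it, and 0 of the 3 elements were among them. Of the 10 near relatives 0 passed 1.5-fold either way (median -0.01). Of the 7 germline elements 1 was lower (median -0.08), namely BLOOD at -1.21, which is also listed as a target of Piwi in OSC.

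In Piwi-KD cells H3K9me3 over input on Burdock was 1.96, against 1.57 in control cells, a log2 change of 0.26 (0.13 to 0.51). On HMS-Beagle it was 3.92 in Piwi-KD cells and 3.36 in control cells, a log2 change of 0.22 (0.16 to 0.29). On Transpac it was 1.42 in Piwi-KD cells and 1.39 in control cells, a log2 change of 0.03 (-0.06 to 0.14).

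None of these passed 1.5-fold, where 13.5% of transposons were higher and 13.5% lower. The Piwi-KD median was 0.32, and relative to it Burdock stood at -0.06, HMS-Beagle at -0.10 and Transpac at -0.28, so the higher H3K9me3 on Burdock and HMS-Beagle does not hold once the shift of all transposons is taken off. The split over all transposons relative to the median was 1 higher and 14 lower in place of 13 and 13. Among 10 near relatives 1 was higher and 3 were lower, and GYPSY differed by -1.60 and DM297 by -1.98 on the log2 scale.

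The added comparison of H1-KD with Piwi-KD gave 1.08 on Burdock in H1-KD cells and 1.96 in Piwi-KD cells, a log2 change of -0.69 (-1.06 to -0.65), the 5th lowest. HMS-Beagle had 2.62 in H1-KD cells and 3.92 in Piwi-KD cells, a log2 change of -0.57 just under 1.5-fold, and Transpac differed by -0.20. So 1 of the 3 passed 1.5-fold, downward, where 9.38% of transposons were higher and 13.5% lower. The median was -0.22, and relative to it Burdock stood at -0.47, short of 1.5-fold. The split over all transposons then became 10 higher and 1 lower in place of 9 and 13.

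HP1a over input, like H3K9me3 over input, was lower on Burdock in H1-KD cells. It was 1.02 in H1-KD cells (815 ChIP reads) and 1.32 in control cells (773 ChIP reads), a log2 change of -0.32 (-0.57 to -0.17) and the 5th lowest of 96. On HMS-Beagle it was 1.99 in H1-KD cells and 2.07 in control cells, a log2 change of -0.06 (-0.13 to 0.01). On Transpac it was 1.21 in H1-KD cells and 1.10 in control cells, a log2 change of 0.13 (0.03 to 0.24). The H3K9me3 and HP1a ratios share the same H1-KD and control inputs, so part of their likeness can come from the inputs. Without input the Burdock changes were -0.32 for H3K9me3 and -0.20 for HP1a. The HP1a changes without input were 0.02 for HMS-Beagle and 0.14 for Transpac.

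The 3 elements thus had different signs for HP1a in H1-KD cells, and 0 of the 3 passed 1.5-fold, where 0.00% of transposons were higher and 2.08% lower. The median was 0.12, and relative to it Burdock stood at -0.44, HMS-Beagle at -0.18 and Transpac at 0.01. All 10 near relatives lay above 0 for HP1a in H1-KD cells, as did 73 of the 96 transposons, with a median of 0.15 and 0 past 1.5-fold.

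In Piwi-KD cells HP1a over input was 1.34 on Burdock, against 1.32 in control cells. HMS-Beagle had 2.1 in Piwi-KD cells and 2.07 in control cells, and Transpac 1.17 in Piwi-KD cells and 1.10 in control cells. The log2 changes of 0.02, 0.02 and 0.08 had intervals that hold 0, and 0 of the 3 passed 1.5-fold, where 2.08% of transposons were higher and 6.25% lower. In the added comparison of H1-KD with Piwi-KD the HP1a changes were -0.33 for Burdock, -0.08 for HMS-Beagle and 0.05 for Transpac, with 0 past 1.5-fold, where 3.12% were higher and 1.04% lower.

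**Figure D3:**
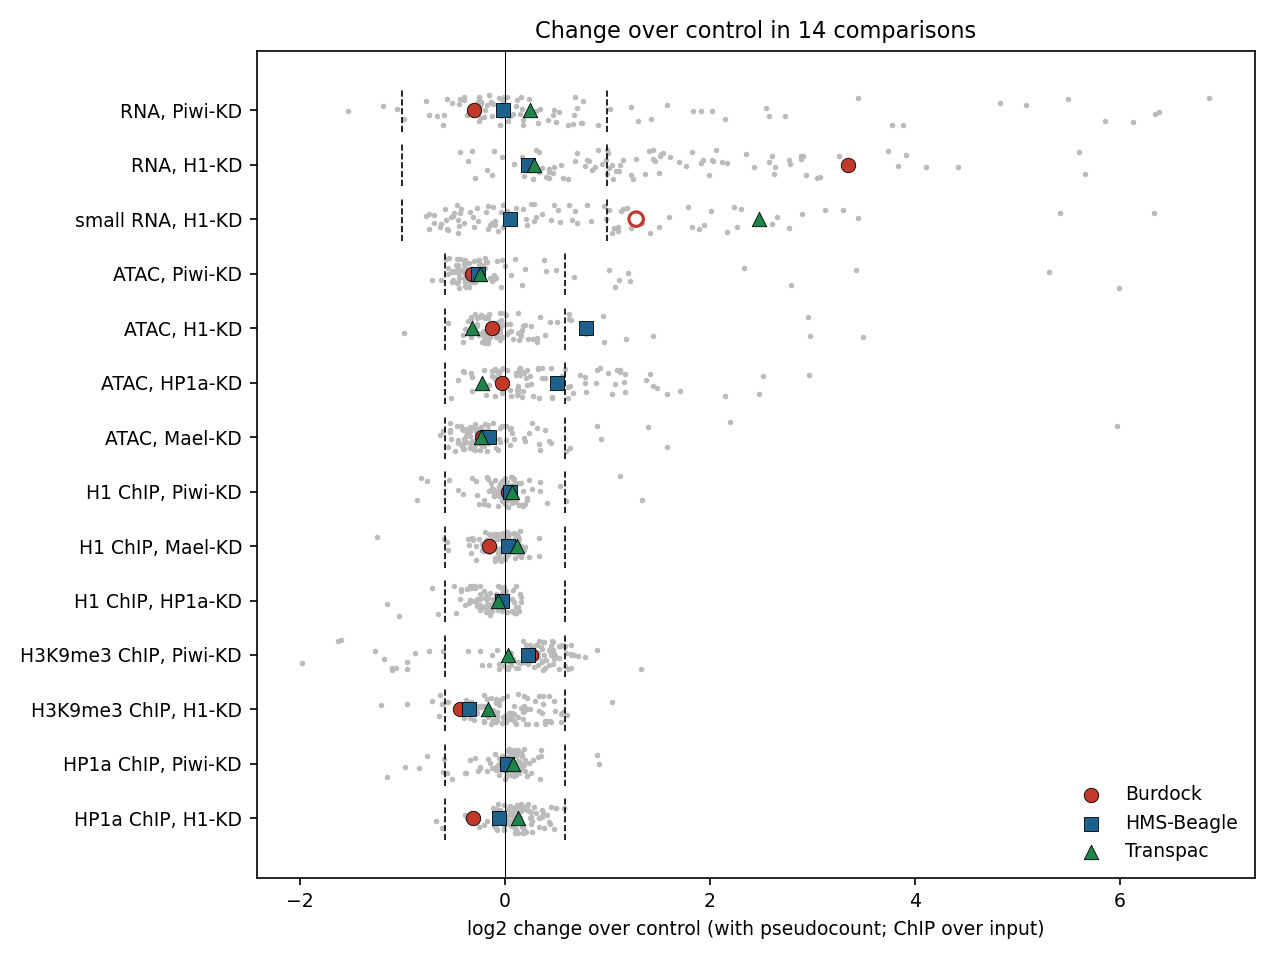
Log2 change over the control in 14 comparisons (rows), for all transposons compared (grey points, spread for legibility) and for Burdock, HMS-Beagle and Transpac; dashed bars mark 2-fold for RNA and small RNA and 1.5-fold for ATAC and ChIP, and the open circle is Burdock small RNA, which lies outside the filter. In the Piwi-KD and Mael-KD rows all 3 elements lie between the dashed bars, and in the H1-KD rows Burdock lies beyond them for RNA and, outside the filter, for small RNA, Transpac for small RNA and HMS-Beagle for ATAC.

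The H1-KD readouts side by side differed from element to element. Burdock combined 10.2-fold higher RNA with the lowest H3K9me3 and HP1a log2 changes of the 3 (-0.44 and -0.32), an ATAC change of -0.13 and, outside the filter, a small RNA change of 1.28. HMS-Beagle combined an ATAC change of 0.80 and an H3K9me3 change of -0.35 with an RNA change of 0.22 and a small RNA change of 0.05. Transpac combined a small RNA change of 2.48 with 0.28 for RNA, -0.32 for ATAC and -0.16 for H3K9me3. These comparisons share their sample labels. H3K9me3 and HP1a are also divided by the same H1-KD and control inputs, so their changes are not independent. Otherwise the readouts come from different libraries, and how they relate was not tested.

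**Figure D4:**
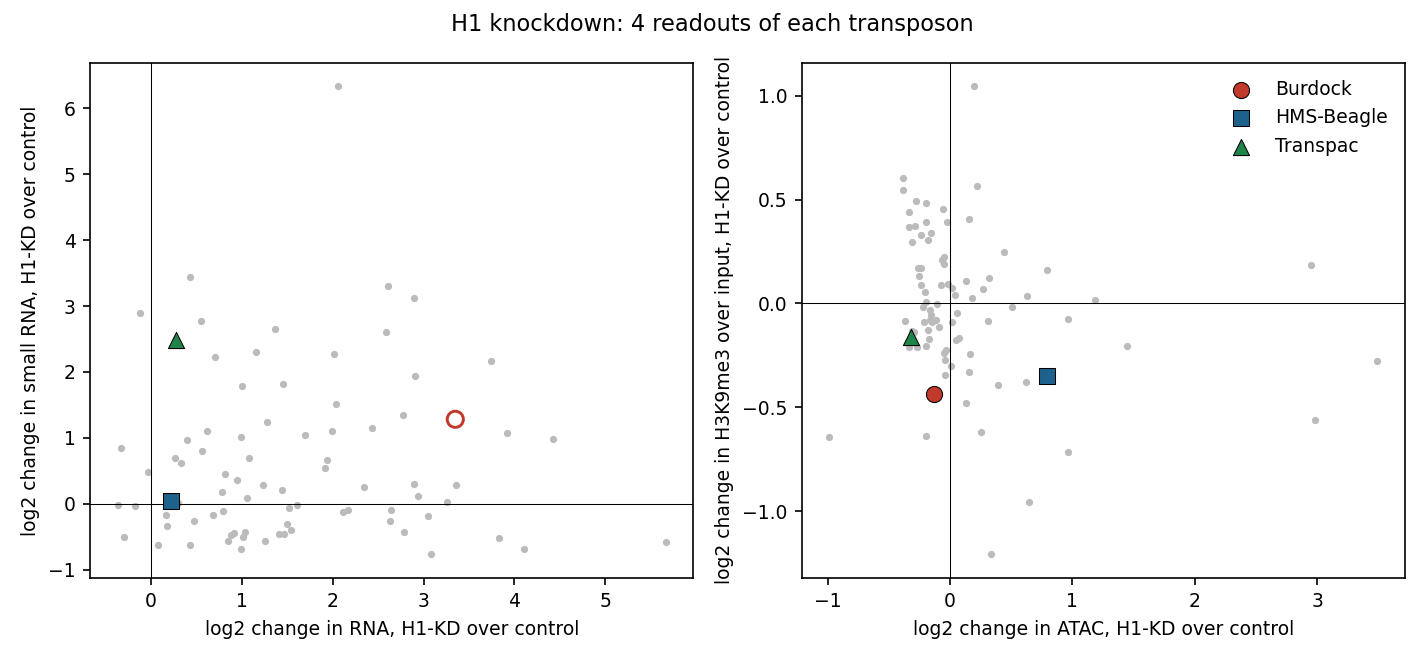
H1-KD over control, as log2 changes, for each transposon compared (grey points): RNA on the x axis and Piwi-bound small RNA on the y axis (left), ATAC on the x axis and H3K9me3 over input on the y axis (right). Burdock (open circle where its small RNA lies outside the filter) stands far right on the RNA axis at 3.35, Transpac high on the small RNA axis at 2.48, and HMS-Beagle right on the ATAC axis at 0.80 with H3K9me3 at -0.35.

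H1 occupancy was measured in knockdowns of 3 silencing factors to ask whether H1 on a transposon depends on them. On Burdock, H1 over input was 1.38 in Piwi-KD cells, against 1.36 in their control, 1.06 in Mael-KD cells against 1.19, and 1.08 in HP1a-KD cells against 1.11. On HMS-Beagle it was 1.35 in Piwi-KD cells against 1.31 in their control, 1.15 in Mael-KD cells against 1.12, and 1.16 in HP1a-KD cells against 1.19. On Transpac it was 1.17 in Piwi-KD cells against 1.11 in their control, 1.13 in Mael-KD cells against 1.04, and 1.01 in HP1a-KD cells against 1.06.

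Sample 1 gave the highest ratios in knockdown and control alike, and the median over 96 transposons was also highest there, at 1.34 in Piwi-KD cells and 1.30 in their control. Against the control of the same sample number, the log2 changes of the 3 elements ran from -0.15 to 0.12, and every interval held 0. None of the 3 passed 1.5-fold in any knockdown. The shares of transposons that did were 3.12% higher and 3.12% lower in Piwi-KD, 0.00% higher and 2.08% lower in Mael-KD, and 0.00% higher and 4.17% lower in HP1a-KD cells.

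**Figure D5:**
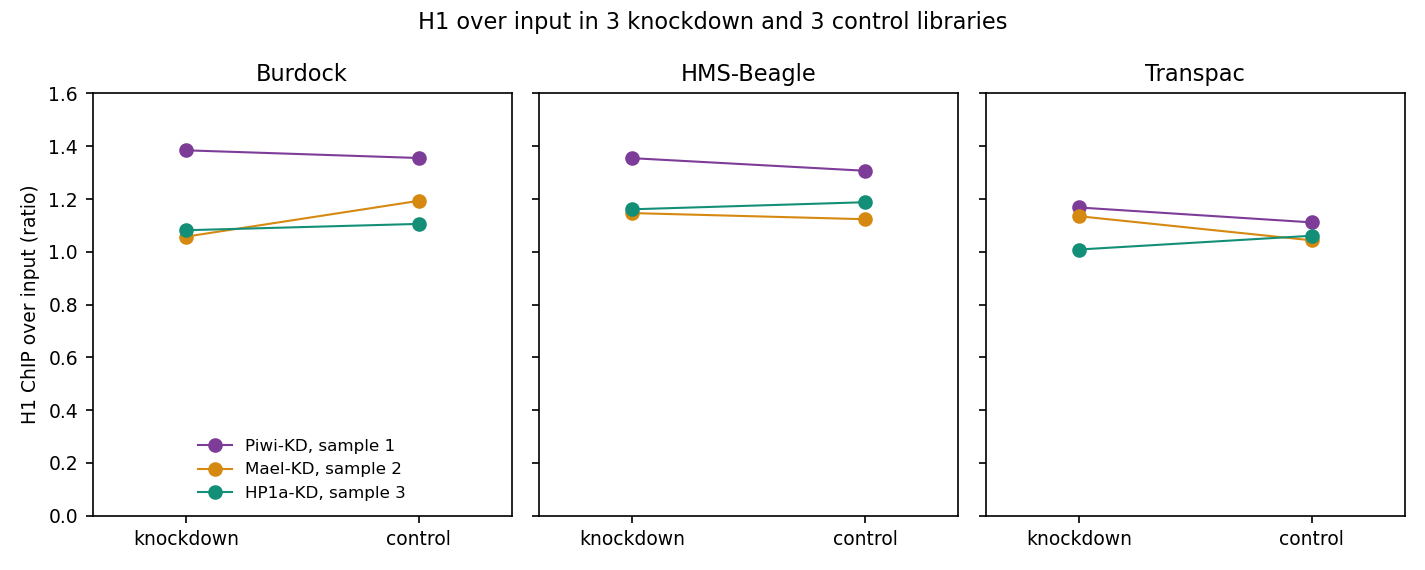
H1 ChIP over input (y axis, a ratio, from 0) for Burdock, HMS-Beagle and Transpac in knockdown and control libraries, with lines joining libraries of the same sample number. Knockdown values run from 1.01 to 1.38 and control values from 1.04 to 1.36, and the 2 sets overlap for each element.

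With all 3 controls in limma, fitted to 94 transposons, H1 over input on Burdock differed by 0.20 ± 0.18 (log2, SE) in Piwi-KD cells, with an adjusted p of 0.636. HMS-Beagle differed by 0.17 (adjusted p = 0.703 by limma) and Transpac by 0.13 (adjusted p = 0.778 by limma). In Mael-KD cells the limma differences were -0.19 for Burdock, -0.07 for HMS-Beagle and 0.08 for Transpac, with adjusted p from 0.902 to 0.928. In HP1a-KD cells they were -0.16, -0.05 and -0.09 in the same order, with adjusted p from 0.801 to 0.920.

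None of the 3 elements was called by limma in any knockdown, and 0 of the 3 had an unadjusted p under 0.05. Over the 94 transposons limma called 4 (4.26%) in Piwi-KD cells, 1 (1.06%) in Mael-KD cells, 4 (4.26%) in HP1a-KD cells and 4 (4.26%) in the 3 knockdowns together. These counts depended on single controls: in Piwi-KD cells limma called 23 without control 1, 2 without control 2 and 0 without control 3. In HP1a-KD cells it called 6, 3 and 2 in the same order, in the 3 knockdowns together 1, 0 and 1, and in Mael-KD cells 1 each time. The 3 knockdowns together differed from the 3 controls by -0.05 ± 0.136 for Burdock, 0.02 ± 0.119 for HMS-Beagle and 0.04 ± 0.111 for Transpac (log2, SE), each with a limma adjusted p of 0.994. Between the controls the log2 SD was 0.15 for Burdock, 0.11 for HMS-Beagle and 0.05 for Transpac, beside a median SD of 0.11 over 94 transposons. A single knockdown library was assumed to vary like the controls, and these fits hold no term for the sample number. The Piwi-KD differences therefore also take in the higher ratios of sample 1. For Burdock the Piwi-KD difference was 0.03 against the control of the same number, and 0.04 by limma relative to the median transposon. For single knockdowns limma gave all 3 elements the same SE of 0.184. That is a spread shared over the 94 transposons and not each element's own SD. Nothing in the labels says that the controls came from separate cultures, so the p-values measure a spread between these libraries. A difference smaller than this spread was not detectable, and these p-values do not show that H1 was equal.

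Across their RNA, small RNA, ATAC and ChIP changes, the 3 elements were not each other's nearest. Over 14 comparisons with a control, each centred and scaled over the transposons compared, Pearson's r was 0.10 between Burdock and HMS-Beagle, 0.04 between Burdock and Transpac and 0.14 between HMS-Beagle and Transpac. The pattern most like Burdock among 68 candidates was that of ACCORD (r = 0.69), followed by BARI (0.65) and BLOOD (0.51). The most like HMS-Beagle were INVADER1 (0.69), BLOOD (0.67) and Gypsy1 (0.62), and the most like Transpac were ROO (0.82), BEL (0.76) and CIRCE (0.75). Several comparisons share a control library, and Burdock small RNA lies outside the filter, so these correlations describe the tables and carry no test.

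The elements named here were picked by likeness over these same changes, so a match in a readout is part of that choice. ACCORD, another LTR element, had an RNA change of 3.36 in H1-KD and 0.01 in Piwi-KD cells, beside 3.35 and -0.30 for Burdock. Its control RNA over input was low, at 0.00103, beside 0.0232 for Burdock. ROO and BEL, both BEL/Pao LTR elements, had small RNA changes of 2.65 and 2.90 in H1-KD cells, beside 2.48 for Transpac. Their RNA changes were less alike. In Piwi-KD cells these were 1.84 for ROO and -0.25 for BEL, beside 0.24 for Transpac. In H1-KD cells they were 1.37 for ROO and -0.12 for BEL, beside 0.28 for Transpac. INVADER1, also an LTR element, had ATAC changes of -0.04 in H1-KD cells and 0.46 in HP1a-KD cells, beside 0.80 and 0.51 for HMS-Beagle. Its H3K9me3 change in H1-KD cells was -0.34, beside -0.35 for HMS-Beagle, so the likeness did not extend to ATAC in H1-KD cells.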

How the data were processed

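Piwi-KD, H1-KD, HP1a-KD, Mael-KD and control OSC were grouped by the assay and siRNA that the sample titles give. The 11 tables used are as the authors deposited them. The small RNA table was deposited in RPM, and all other values were deposited in RPKM. Both units were read off the numbers, because no source used here names them: with 1 whole-number length per transposon and 1 total per column, 3606 of 3606 nonzero values became whole reads (tolerance 0.05). Of 129 transposons 128 have a length, and for 118 of these the smallest of several possible lengths was taken, so a factor common to length and reads would change the read counts. Per the submitters' processing notes, cutadapt, Bowtie2 2.0.6, TopHat2 2.0.7, Cufflinks 2.1.1, Bowtie 1.0.1 and MACS2 were used on build dm3. The handling of reads that match several families and any shift of ATAC reads are not given in the sources used here. Values of related elements are therefore uncertain.

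The log2 change was taken after a pseudocount p was added to both values, with p at 0.553 RPKM for RNA, 5.80 RPKM for ATAC and 8.10 RPM for small RNA; it understates changes of low transposons. ChIP values were divided by the input that shares their knockdown and sample number. The lowest 25% of transposons by mean over all columns (33 of 129) were left out, and 96 were compared. Intervals between 2 libraries were exact (Clopper-Pearson), and those of ChIP over input used a normal approximation of the log ratio. The libraries carry no molecular identifiers that the sources name, so reads copied by PCR are counted as separate molecules. H1 over input was tested with limma 3.58.1 in R 4.3.3, with Benjamini-Hochberg adjustment over 94 transposons. Single knockdowns left 2 residual degrees of freedom per transposon, the 3 knockdowns together 4, and fits without a control 1 and 3. To these limma adds information on variance from all transposons fitted. The design foresaw limma over replicate ATAC columns, which 1 column per condition did not allow. The 3 elements, the lists and the rule for naming other transposons (the 3 with the highest r for each element, and 4 well-known elements) were chosen with earlier results of these data known. Scripts were tested on simulated data. Alternatives were other pseudocounts, no filter, scaling to the median transposon, division by input or none, each control left out and a replicate block.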

Additional observations from a re-analysis of the deposited data

How the results depend on the processing

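Counts of the 3 elements past the fold were the same in 89 of 92 combinations of comparison and alternative, and counts called by limma in 21 of 21. The 3 exceptions were small RNA in H1-KD cells, where 2 elements passed 2-fold with no filter, and H3K9me3 in H1-KD against Piwi-KD cells, where 0 passed with a pseudocount of the whole median and 0 relative to the median transposon. Burdock RNA in H1-KD cells ran from 1.58 (pseudocount of the whole median) to 3.95 (0.01 of it), and was 3.23 divided by input. Transpac small RNA ran from 1.66 to 2.62, and HMS-Beagle ATAC in H1-KD cells from 0.59, just past 1.5-fold, to 0.88. Of the values of single elements, 214 kept their value within the counting interval or their call, 59 moved (among them changes short of the fold, such as HMS-Beagle and Transpac RNA in H1-KD cells, that turned sign relative to the median), and 12 limma values of H1 over input, none of them called, turned sign. For Transpac they were -0.00052 (without input) and -0.0319 (relative to the median) in Piwi-KD cells and 0.0812 and 0.0940 in HP1a-KD cells. For HMS-Beagle they were 0.0412 in Mael-KD cells and 0.13 in HP1a-KD cells relative to the median, and 0.0626 in HP1a-KD cells without input. For Burdock they were 0.0213 in HP1a-KD cells relative to the median and 0.0463 in the 3 knockdowns together without input. Leaving out each control in turn gave -0.103 to 0.00731 for HMS-Beagle in HP1a-KD cells, and -0.118 to 0.0321 for Burdock and -0.0340 to 0.0764 for HMS-Beagle over the 3 knockdowns together, with 0 elements called each time. Without control 1, the unadjusted p by limma in Piwi-KD cells was 0.0228 for Burdock and 0.0303 for HMS-Beagle. With the sample number as a replicate block the 3 knockdowns together gave -0.05 for Burdock, 0.02 for HMS-Beagle and 0.04 for Transpac (limma adjusted p = 0.914, 0.964 and 0.914), 0 elements called, and 0 transposons called in place of 4. Over all transposons, limma called 0 in each contrast without input. Relative to the median it called 6 in Piwi-KD cells, 0 in Mael-KD cells, 1 in HP1a-KD cells and 0 in the 3 knockdowns together. The block gave an SE of 0.0698 for Burdock, 0.0631 for HMS-Beagle and 0.0707 for Transpac, against 0.136, 0.119 and 0.111 without it. Deviations of same-numbered libraries correlated at 0.27, -0.04 and 0.18. Each number joins a control to a different knockdown, so these correlations cannot decide whether the numbers pair the samples. Without control 1, Piwi-KD sample 1 is set against controls 2 and 3 alone. Their median ratios over 96 transposons were 1.15 and 1.18, against 1.30 in control 1. The causes of the differences between these settings were not tested. Depth limits Burdock most, with 71 to 123 RNA reads in Piwi-KD and control cells and 66 to 232 small RNA reads.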
